A study of Mus musculus with 108 samples.

Results

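Distal sites lost after the hemangioblast are stretches of mouse open chromatin that drove a reporter in embryonic stem cells and in hemangioblasts and were in none of the reporter-positive lists of the 3 later stages. They were chosen from the reporter readout itself. Overlapping distal fragments of the 95 sorted libraries were joined, which gave 58916 sites. A site was kept as a member if it held at least 1 fragment from YFP-positive cells of the ES stage and of the HB stage, replicates pooled, and none from YFP-positive cells of HE1, HE2 or HP. The rule found 1485 sites, which were 15.0% of the 9873 sites positive in both ES and HB and 2.52% of all sites. The other 8388 sites positive in ES and HB were positive again in at least 1 later stage. They are called retained sites here and serve as the main comparison.

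An enhancer is a piece of DNA that raises transcription from a promoter when transcription factors bind it, often at a distance. In embryonic stem cells, enhancers near pluripotency genes bind OCT4, SOX2, ESRRB and KLF proteins, and many of them are shut down as cells leave that state. In blood formation, ETS, GATA, TAL1, RUNX and AP-1 factors take over enhancers as mesoderm passes through hemogenic endothelium to blood progenitors. A reporter set before a weak promoter reads this activity as fluorescence of the cell that carries it.

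All groups were made from HM-1, a mouse embryonic stem cell line that carries no working Hprt gene. Fragments cut out of open chromatin by Tn5 transposase at 5 stages were cloned in front of an HSP68 minimal promoter and a gene for Venus-YFP, a yellow fluorescent protein, and recombined into the Hprt locus, which was repaired by the same step. The pools of cells were followed through differentiation as undifferentiated ES cells (ES), FLK1+ hemangioblasts (HB), KIT+ TIE2+ CD41- early hemogenic endothelium (HE1), KIT+ TIE2+ CD41+ late hemogenic endothelium (HE2) and as KIT+ TIE2- CD41+ hematopoietic progenitors (HP). Each stage had 5 replicates, separated by fluorescence into a Negative gate and the positive gates Low, Medium and High, the last 2 of which were collected together in replicate 5. The reporter stands at 1 locus and in front of 1 promoter, so the readout is what a fragment did there and not at its own place in the genome. The lists hold DNA of the inserts, so the stage labels could not be checked against marker genes.

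The libraries differed greatly in size. Replicate 1 held between 18652 and 131091 listed fragments per library and replicate 2 between 15627 and 113943. Replicates 3, 4 and 5 were far smaller, with medians of 1948, 1725 and 1112 fragments. Each list names a fragment once, with no read count, so the depth behind a fragment is unknown. Below, a fragment listed in several libraries is counted once in each of them. Each of 4 HE1 libraries shared many fragments with another HE1 library. Without those 4 libraries the rule gave 1502 sites in place of 1485.

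The sites near the rule's limit show how thin the evidence for a single member can be. Members held a median of 2 positive fragments in ES, from 1 to 34, and a median of 2 in HB, from 1 to 27. Retained sites had medians of 4 and 4. A single positive fragment in ES supported 638 members (43.0%) and a single one in HB 490 members (33.0%). Just inside the rule lay 288 sites with 1 fragment in ES and 1 in HB. Just outside lay 185 sites whose later evidence was 1 positive fragment, which came from HE1 at 64 sites, from HE2 at 47 and from HP at 74. Of 722 sites with 2 early fragments 39.9% were members. Of 3085 sites with 12 or more early fragments 2.82% were members. The number of members therefore depended on how much evidence was asked for. Requiring 2 positive fragments in each of ES and HB left 645 sites, and requiring 2 positive replicates in each left 462.

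**Figure D1:**
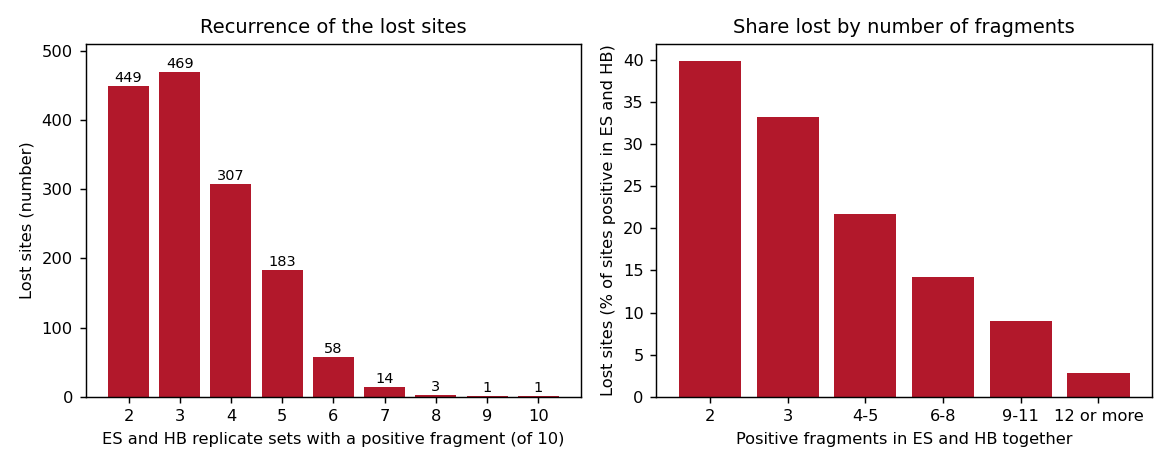
Left, number of lost sites (bars) against the number of the 10 ES and HB replicate sets in which the site had a positive fragment. Right, lost sites as a percentage of all sites positive in ES and HB (bars), by the number of positive fragments in ES and HB together. Most lost sites were seen in 2 to 4 sets, and the share lost falls from 39.9% at 2 fragments to 2.82% at 12 or more.

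Most members recurred in 3 or more sets of cells. Of the 10 sets formed by 2 stages and 5 replicates, 449 members were positive in 2 sets, 469 in 3, 307 in 4 and 183 in 5. The remaining 77 were positive in 6 or more. At least 2 replicates of ES and 2 of HB were positive at 462 members (31.1%), against 64.6% of retained sites. Members made up 7.18% ± 1.54 (SD, n = 5) of the positive sites of an ES replicate and 6.37% ± 0.397 (SD, n = 5) of those of an HB replicate. An identical fragment, with the same start and end, was positive in both ES and HB at 987 members (66.5%). Most positive fragments came from the brighter gates. Medium and High gates gave 74.7% of the members' positive fragments in ES and 82.7% in HB, against 71.7% and 77.8% at retained sites. These shares describe the lists that chose the members and were not tested.

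Sequences of 8 members are shown so that the elements behind the values below can be read. They are the central 200 bp of each site on the plus strand of mm10, taken from the reference genome and printed 5′ to 3′. Capitals mark exact matches, on either strand, to the words searched for 15 factor families, which are listed further on. The first is the member with the smallest p in the fit to cloned chromatin. It lies between genes, 10.0 kb from the start of Lefty1, which encodes an inhibitor of Nodal signalling.
Lefty1 site, chr1:180924912-180925111: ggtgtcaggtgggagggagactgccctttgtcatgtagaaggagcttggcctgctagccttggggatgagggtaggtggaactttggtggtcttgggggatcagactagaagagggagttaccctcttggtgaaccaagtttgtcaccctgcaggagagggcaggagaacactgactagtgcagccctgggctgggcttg
The next was positive in 7 of 10 sets and lies in an intergenic region far from any gene, with Qrsl1 nearest at 134 kb.
Qrsl1 site, chr10:43742657-43742856: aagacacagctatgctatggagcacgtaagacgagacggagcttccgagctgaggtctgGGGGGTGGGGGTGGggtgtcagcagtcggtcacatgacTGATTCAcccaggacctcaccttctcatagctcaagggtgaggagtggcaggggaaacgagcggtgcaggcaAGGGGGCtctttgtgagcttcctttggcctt
Another, positive in 8 sets, lies in an intron of Znrf3, which encodes a membrane ubiquitin ligase that dampens Wnt signalling. The nearest annotated start of a protein-coding transcript is that of Kremen1.
Znrf3 intron site, chr11:5318282-5318481: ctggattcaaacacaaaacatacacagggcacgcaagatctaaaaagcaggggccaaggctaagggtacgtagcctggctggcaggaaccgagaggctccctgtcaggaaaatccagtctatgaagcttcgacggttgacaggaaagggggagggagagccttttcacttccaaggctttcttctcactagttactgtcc
Intergenic sites near Fgf4, a growth factor gene of the pluripotent state, and near Efnb2, which encodes an ephrin of arterial endothelium, follow.
Fgf4 site, chr7:144888925-144889124: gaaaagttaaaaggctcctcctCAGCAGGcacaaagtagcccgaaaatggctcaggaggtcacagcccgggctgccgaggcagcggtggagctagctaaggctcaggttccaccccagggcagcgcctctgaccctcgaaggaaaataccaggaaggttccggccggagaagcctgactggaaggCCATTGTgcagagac
Efnb2 site, chr8:8609238-8609437: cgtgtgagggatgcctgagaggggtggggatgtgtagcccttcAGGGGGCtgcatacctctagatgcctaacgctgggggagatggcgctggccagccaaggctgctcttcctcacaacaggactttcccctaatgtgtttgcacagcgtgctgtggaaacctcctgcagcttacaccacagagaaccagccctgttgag
Intronic sites of Gfi1b and of Pax6 show that members also lay at genes of other lineages. Gfi1b encodes a transcriptional repressor that acts in erythroid and megakaryocytic cells, and Pax6 a regulator of neural and eye fate.
Gfi1b site, chr2:28612626-28612825: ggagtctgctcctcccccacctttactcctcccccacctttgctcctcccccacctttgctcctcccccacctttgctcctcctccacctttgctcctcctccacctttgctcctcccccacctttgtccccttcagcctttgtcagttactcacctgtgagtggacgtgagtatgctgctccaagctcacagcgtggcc
Pax6 site, chr2:105680433-105680632: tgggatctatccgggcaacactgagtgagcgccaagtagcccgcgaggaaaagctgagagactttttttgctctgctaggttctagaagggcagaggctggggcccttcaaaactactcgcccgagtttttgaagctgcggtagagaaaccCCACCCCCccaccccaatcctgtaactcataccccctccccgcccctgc
The last, in an intron of Hoxc11, is a member whose identical fragment came back in a later Negative list.
Hoxc11 site, chr15:102956026-102956225: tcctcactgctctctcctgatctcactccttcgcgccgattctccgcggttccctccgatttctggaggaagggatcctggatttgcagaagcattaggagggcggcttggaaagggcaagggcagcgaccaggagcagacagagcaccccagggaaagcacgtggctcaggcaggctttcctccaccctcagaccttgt

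The first question was whether the members' fragments were carried by later cells without driving YFP. Fragments of the Negative lists helped to form the sites but were not counted in choosing members. A Negative fragment could widen a site or join it to a neighbour with a later positive fragment. The part of this in the values below was not tested. Members were listed in the Negative lists of ES at 549 sites (37.0%) and of HB at 568 sites (38.2%). They were listed in the Negative lists of HE1 at 4 sites (0.269%), of HE2 at 1 site (0.0673%) and of HP at 19 sites (1.28%). In all, 24 members (1.62%) were in any later Negative list, against 89.3% of retained sites and 49.2% of all sites. Over all members the Negative lists held 1596 fragments in ES and HB and 27 in HE1, HE2 and HP. Nearly all members were missing from the negative as well as the positive lists of the later stages.

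**Figure D2:**
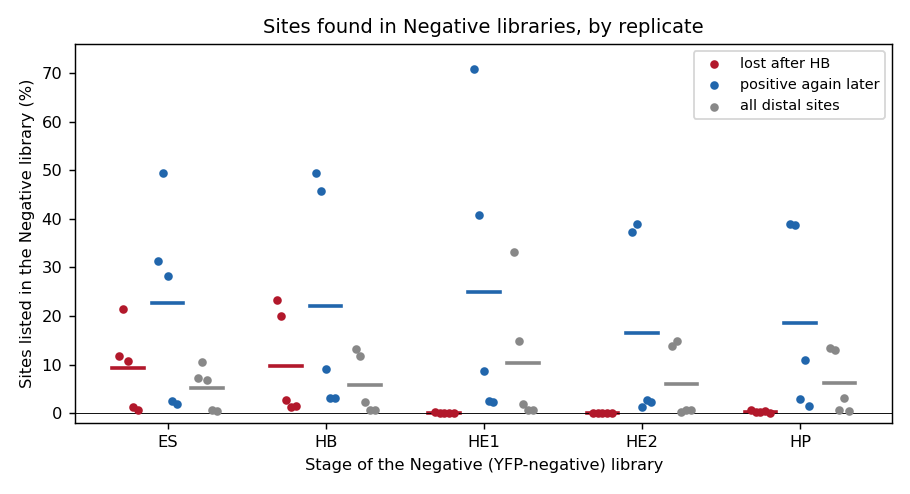
Percentage of sites listed in each Negative (YFP-negative) library, by stage. Points are the 5 replicates and lines their means, for lost sites, for sites positive again later and for all distal sites. The lost sites lie between 0.673% and 23.3% in ES and HB and at 0.606% or below in HE1, HE2 and HP.

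The replicates showed this at every depth. In ES, 11.8%, 21.5%, 10.7%, 1.35% and 0.673% of members were listed in the Negative libraries of replicates 1 to 5. In HB these shares were 23.3%, 20.1%, 2.63%, 1.28% and 1.55%. In HE1 they were 0.202%, 0.0673%, 0, 0 and 0, in HE2 0.0673% and then 0 in the other 4, and in HP 0.606%, 0.202%, 0.135%, 0.404% and 0. All 10 ES and HB values lay above all 15 later ones. The same absence was seen beyond the members. Sites positive in ES and HB without a positive fragment in HE1 were in the HE1 Negative lists in 1.54% of cases, and those with one in 85.4%. The corresponding shares were 3.44% and 63.99% in HE2 and 4.60% and 65.9% in HP. Presence in the positive and in the Negative lists of a stage therefore went together. The lists had been limited to open chromatin peaks by the authors, and the sources used here do not say whether the peaks of the same stage were used. The part of that filter in the members' absence was not tested.

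A test of each site on the Negative lists had little to work on. Only 42 of 1485 members had a fragment in at least 4 of the 25 Negative libraries. Members were listed almost wholly in ES and HB, so the direction of those that passed was set by the filter and nothing is read from it. By limma with Benjamini-Hochberg adjustment, 0 members and 0 of all 9068 sites tested (0%) were called in either direction. At an unadjusted p under 0.05 were 40 of the 42 members and 327 of all sites.

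Few members returned as the very same molecule. Of 4634 distinct positive fragments of members in ES and HB, 828 (17.9%) were also in a Negative list of ES or HB. Identical fragments in a later Negative list were found at 8 members, and at each of the 5 named under the rule for such sites it was in 1 library. These were the Hoxc11 intron site printed above, an intergenic site 5.94 kb from Dr1, a site 6.64 kb from Emx2, a homeobox gene of the forebrain, an intron site of Gramd1b and a site 16.3 kb from S1pr3, which encodes a receptor for sphingosine 1-phosphate. The Hoxc11 site had 3, 2 and 1 positive fragments in ES replicates 1 to 3 and 3 and 2 in HB replicates 1 and 2, with 1 Negative fragment in HP. These sites had been positive in 3 to 5 sets.

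The second question was whether the chromatin itself had been less available for cloning at later stages. Each stage's Tn5 fragments were sequenced after cloning into a first vector, pDONR, and again after transfer to the reporter vector, pSKB. These plasmid lists give reads per fragment, and the rule did not use them directly. Per the methods, though, a sorted fragment was kept only if it was in the pooled plasmid libraries and in an ATAC-seq peak. The values below are therefore not fully separate from the choice of members. Members were rich in reads in the ES and HB libraries and poor in the other 3. In CPM, the reads of a site scaled to the normalised total of reads over sites in its library, the pDONR median of the members was 27.5 for ES, 20.3 for HB, 4.74 for HE1, 4.47 for HE2 and 5.22 for HP. Retained sites had medians of 35.4, 34.8, 25.3, 24.2 and 27.7. Over all sites the medians were 7.67, 6.97, 8.08, 7.65 and 7.41. Members thus stood above the typical site in the ES and HB chromatin and below it in each later chromatin.

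**Figure D3:**
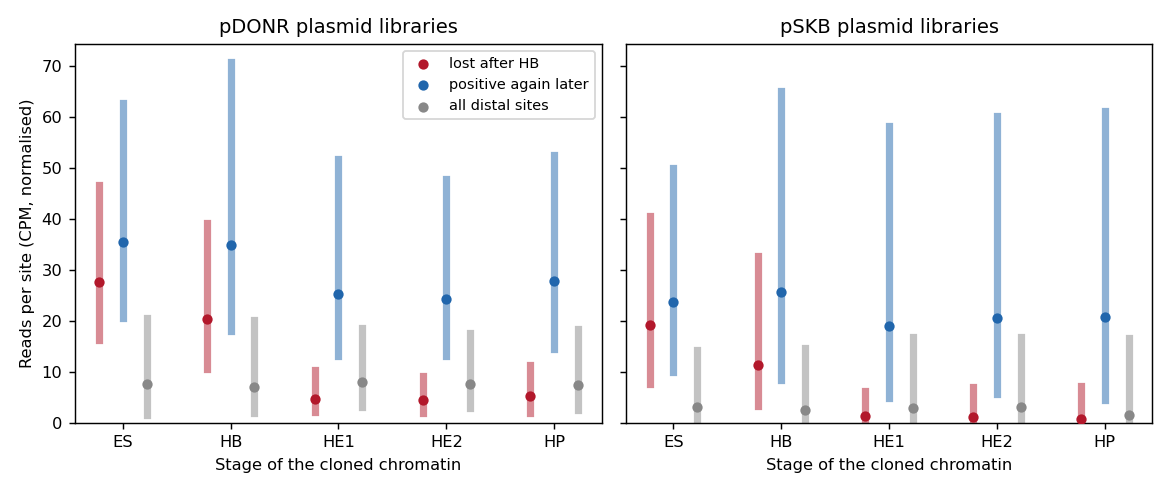
Normalised read counts per site (CPM) in the plasmid libraries of the 5 stages, before (pDONR, left) and after (pSKB, right) transfer to the reporter vector. Points are medians over sites and bars the quartiles. Lost sites fall from medians of 27.5 and 20.3 in pDONR ES and HB to between 4.47 and 5.22 in the other 3, while retained sites stay at 24.2 or above.

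Both early libraries lay above all 3 later ones at 1140 members (76.8%), against 20.5% of all sites and 30.0% of retained sites. Both lay below at 8 members (0.539%), against 23.5% of all sites. In pSKB, both early libraries lay above the later ones at 761 members (51.2%), against 14.7% of all sites, and below at 12 (0.808%), against 13.8%. In pDONR, 51 members (3.43%) had 0 reads in HE1, 75 (5.05%) in HE2 and 83 (5.59%) in HP. These shares lay near the 2.58%, 3.49% and 6.08% of all sites, while at retained sites they were 0.0477%, 0.0596% and 0.0477%. In pSKB, where fewer distinct fragments were carried, the shares of members were 25.8%, 24.6% and 30.8%, against 18.8%, 19.0% and 28.8% of all sites and 2.16%, 1.87% and 3.72% of retained sites.

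A fit across all sites compared the 2 early with the 3 later pDONR libraries by edgeR's quasi-likelihood test with Benjamini-Hochberg adjustment, each stage standing as 1 sample. Of the members, 1456 passed the filter on low counts and 298 were called higher in ES and HB (20.5%), while 0 were called lower. At an unadjusted p under 0.05, in either direction, were 881 members. That p was also reached by 14613 of all 53771 sites tested and by 1224 of the 8379 retained sites tested. Among all 53771 sites tested, 1266 (2.35%) were called higher and 1530 (2.85%) lower. Of the retained sites 1.93% were called higher and 0.298% lower. The median log2 difference, early minus later, was 2.17 over members, 0.38 over retained sites and -0.06 over all sites. The difference was above 0 at 1400 of the 1456 members (96.2%), against 68.6% of retained and 48.7% of all sites tested. It was above 1 at 83.4% of members, against 23.5% of retained and 26.03% of all sites. Above 3 lay 28.4% of members, 0.609% of retained and 5.38% of all sites. The calls of single sites are fragile. With any of the 3 later libraries left out, 0 members were called, at 631 to 792 members under an unadjusted p of 0.05. The counts of all sites under that p are not given for these fits. The median difference stayed between 1.93 and 2.31 when each library was left out in turn. The spread between stages enters the test as its error, so a p-value here does not measure culture-to-culture error.

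The difference was seen at every number of positive fragments. Among sites with 2 early fragments the median log2 difference was 2.14 at members and 0.67 at retained sites. With 6 to 8 fragments the medians were 2.25 and 0.51, and with 12 or more 1.70 and 0.14. The lower quartile of the members lay above the upper quartile of the retained sites in all groups but that with 2 fragments. According to the labels, 1 part of each transposition reaction went to ATAC-seq and the rest to cloning, so peaks used to limit the lists may come from the same reactions as the plasmid libraries. Some of the difference between early and later libraries may thus be built into the choice of members, which was not tested.

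**Figure D4:**
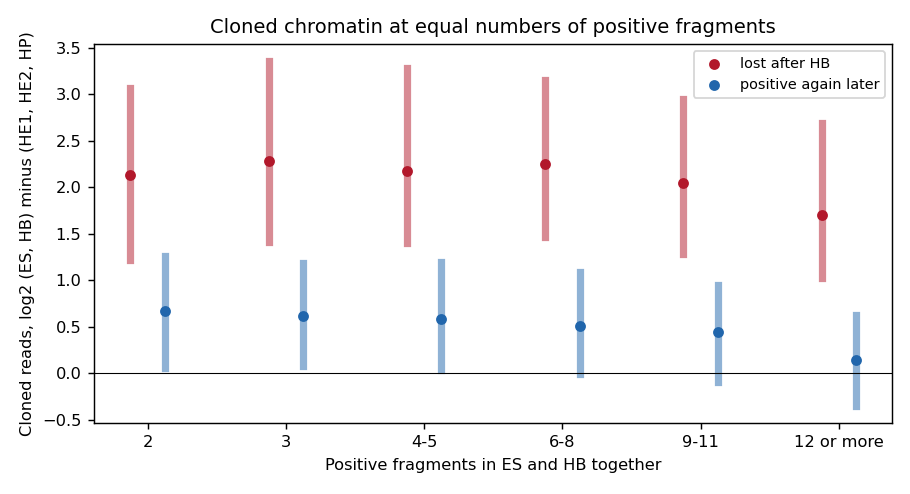
Difference of cloned pDONR reads, log2 of the ES and HB libraries minus HE1, HE2 and HP, against the number of positive fragments of the site in ES and HB. Points are medians over sites and bars the quartiles. Lost sites have medians between 1.70 and 2.28 and retained sites between 0.14 and 0.67 across the 6 groups.

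Some positive fragments of the members were listed only in plasmid libraries of later stages. Of the 4634 distinct positive fragments, 89.2% were identical to a fragment of a plasmid list. Of the 4135 matched fragments, 52.3% were in ES or HB plasmid lists only, 40.6% in HE1, HE2 or HP lists only and 7.06% in both. At retained sites these shares were 22.4%, 67.2% and 10.4%. A positive fragment found only in later plasmid lists was present at 976 members (65.7%), against 94.0% of retained sites. At 301 members (20.3%) every matched positive fragment was of this kind, near the 18.5% of retained sites. At these 301 sites the matched fragments positive in ES and HB cells were listed from HE1, HE2 or HP chromatin alone. The plasmid lists are incomplete, as not every positive fragment was in one. Absence from the ES and HB lists therefore does not show which chromatin a clone came from. Identical fragments were found in HM-1 PCR controls, made without a reporter library, at 1, 11 and 3 members in the 3 controls.

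Single members ranged from near absence in later chromatin to no fall. The member positive in all 10 sets, chr10:81316916-81317789, covers coding exon sequence of Pip5k1c, which encodes a kinase that makes phosphatidylinositol 4,5-bisphosphate, 0.511 kb from an annotated start. It had 5, 3, 1, 1 and 2 positive fragments in ES replicates 1 to 5 and 3, 3, 1, 2 and 1 in HB. Its cloned reads in CPM were 91.5 and 97.3 in ES and HB and 133, 41.5 and 54.9 in HE1, HE2 and HP. The early and later libraries overlapped, with a log2 difference of 0.30 ± 0.54 (approximate SE, 5 libraries; edgeR adjusted p = 0.759). The member with the most positive fragments, chr2:152396116-152396563, lies over the UTR of Sox12, which encodes a SOX factor of the SoxC group. It had 12, 13, 7, 1 and 1 positive fragments in ES and 12, 11, 3, 1 and 0 in HB, of which 38 were distinct. Its cloned CPM were 80.1, 104, 152, 105 and 120 from ES to HP, with HB and HE2 nearly equal and HE1 highest (log2 difference -0.44 ± 0.40, edgeR adjusted p = 0.513). At both of these best-covered members the early libraries did not lie above the later ones. In all, 56 members (3.85% of those tested) had a difference below 0, against 31.4% of retained and 51.3% of all sites.

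Of the 8 other members named for their recurrence, 6 were called higher in ES and HB, while the Pip5k1c and Sox12 sites were not. Among all members tested 20.5% were called higher, and among all sites 2.35%. The Znrf3 intron site had 60.8 and 109 CPM in ES and HB and 18.1, 8.93 and 6.04 in HE1, HE2 and HP (log2 difference 2.94 ± 0.63, edgeR adjusted p = 0.0346). A site over coding exon sequence of Cacnb1, a calcium channel subunit gene, had 142 and 108 against 13.0, 9.89 and 18.7. The Qrsl1 site had 89.4 and 84.2 against 8.08, 7.97 and 8.51. A site at an exon of Ucp2, which encodes a mitochondrial carrier, had 91.8 and 73.8 against 14.04, 16.6 and 24.4. Sites at Slc27a1, a fatty acid transporter gene, and Prss36, a serine protease gene, were called too, with log2 differences of 2.48 and 3.06. A site in an intron of C77080 was uneven, with 191 and 116 in ES and HB, 22.8 and 24.2 in HE1 and HE2 and 129 in HP. A site at Nr2f6, an orphan nuclear receptor gene, had 117 and 166 against 59.7, 42.4 and 76.9 (log2 difference 1.24 ± 0.44, edgeR adjusted p = 0.103). Though listed as distal, the Ucp2, Slc27a1 and Nr2f6 sites lay 0.256, 0.354 and 0.19 kb from an annotated start of a protein-coding gene.

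The 5 members with the smallest p in the fit shared an adjusted p of 0.0199 with other members and had fewer reads in later chromatin than in ES and HB. The Lefty1 site printed above had 233 and 125 CPM in ES and HB and 4.92, 5.74 and 4.67 in HE1, HE2 and HP, a log2 difference of 5.13 ± 0.51 (edgeR adjusted p = 0.0199). It had 1 positive fragment in each of ES replicates 2 and 3 and 3, 1, 1 and 2 in HB replicates 1 to 4. A site in an intron of Hunk, a kinase gene, had 79.6 and 148 against 0.878, 1.28 and 3.57. An intergenic site 46.7 kb from BC048507 had 66.6 and 59.4 against 1.40, 0.957 and 0.549, a log2 difference of 5.94. An intergenic site near Tmem238l had 110 and 55.1 against 1.93, 2.87 and 1.65. The site 9.41 kb from Epha2, which encodes an ephrin receptor abundant in early embryos, had 143 and 132 against 10.0, 8.29 and 10.2. These 5 were chosen by p from these same libraries, so nothing is read from both early libraries lying above every later one at each. That order was seen at 76.8% of members and 20.5% of all sites. The 5 were positive in 3 to 6 sets.

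The members were then set beside genes of the lineages involved. Within 100 kb of a transcription start of 40 pluripotency genes lay 21 members (1.41%), against 1.03% of retained sites and 0.810% of all sites. They lay near 15 genes, among them Pou5f1, which encodes OCT4, Sox2, Nodal, Tdgf1, the Nodal co-receptor gene, and Dnmt3a, a DNA methyltransferase gene. In cloned chromatin 7 of the 21 were called higher in ES and HB, against 20.5% of all members tested and 2.35% of all sites. Their median log2 difference of 2.25 lay close to the 2.17 of all members. The called ones lay near Lefty1, Fgf4, Tdgf1 and, with 2 sites each, Dnmt3a and Tbx3, a T-box repressor gene. All 21 differences lay above 0, from 1.13 to 5.13, as did 96.2% of those of all members and 48.7% of all sites. The Fgf4 site printed above, 27.6 kb from its start and nearer to Fgf15, had 29.1 and 83.2 CPM in ES and HB and 5.09, 6.70 and 10.4 later.

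Near mesoderm and cardiac genes lay 12 members (0.808%), against 1.03% of retained and 0.681% of all sites. Of these, 4 were called higher in ES and HB, near Fgf8, Lhx1, Cdx2 and Bmper, against 20.5% of all members tested and 2.35% of all sites. The median log2 difference of the 12 was 2.22, close to that of all members. Cdx2 and Lhx1 encode homeodomain factors of the posterior and the early mesoderm, and Bmper encodes a secreted modulator of BMP signals. The site 53.4 kb from Fgf8, at a coding exon of Kcnip2, was positive in 7 sets and had 30.9 and 48.4 CPM in ES and HB against 4.56, 5.103 and 4.67. Sites 7.90 kb from Mesp2 and 23.9 kb from Wnt3a, genes of nascent mesoderm, had log2 differences of 2.72 and 1.38 and missed the threshold.

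Members also lay near genes of the later fates. Near endothelial genes lay 7 members (0.471%), against 0.823% of retained and 0.782% of all sites. The Efnb2 site printed above had 132 and 114 CPM in ES and HB and 10.0, 5.103 and 5.49 later, a log2 difference of 4.15 ± 0.54 (edgeR adjusted p = 0.0202). A site in an intron of Flt4, the gene of a VEGF receptor, was the other one of the 7 called, against 20.5% of all members tested and 2.35% of all sites. It had 190 and 73.6 against 30.5, 23.0 and 23.6. Sites 16.4 and 22.6 kb from Nos3, the endothelial nitric oxide synthase gene, had differences of 1.21 and 0.76. They lie over coding exons of Kcnh2 and of Atg9b, whose starts are nearer.

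Near blood genes lay 15 members (1.01%), close to the 1.04% of retained and 0.947% of all sites. Of these, 3 were called higher in ES and HB, near Gfi1b, Klf1, an erythroid factor gene, and Vav1, a signalling gene of blood cells. That share is near the 20.5% of all members tested, against 2.35% of all sites, and the median log2 difference of the 15 was 1.82. The Gfi1b intron site had 48.7 and 54.3 CPM in ES and HB and 3.16, 5.103 and 1.37 in HE1, HE2 and HP. Its central stretch, printed above, consists mainly of a short tandem repeat of cytosine-rich units. The site 37.0 kb from Spi1, the gene of PU.1, lies in an intron of Rapsn, 2.59 kb from the start of that gene. Its log2 difference was 2.29 (edgeR adjusted p = 0.0568). The lowest value of the list was -1.03, at a site 36.4 kb from Itgb3. Near neural genes, a lineage this culture does not aim at, lay 10 members (0.673%), against 0.644% of retained and 0.334% of all sites. Of the 10, 2 were called, against 20.5% of all members tested and 2.35% of all sites. One lay at Pax6, with a log2 difference of 2.75, and the site 44.1 kb from Sox1 missed the threshold at 2.36. No list was tested for enrichment.

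By annotation the members were spread over the genome. Their midpoints lay between genes at 662 sites (44.6%) and in introns at 590 (39.7%). Coding exons held 130 members (8.75%), against 5.96% of retained and 3.04% of all sites. The median distance to the nearest protein-coding transcription start was 13.1 kb, against 10.9 kb at retained and 16.6 kb at all sites. Beyond 100 kb lay 10.4% of members and 5.62% of retained sites. The 1485 members had 1318 different nearest genes, and 1169 of these were nearest to 1 member. Skor2, a neural co-repressor gene, had the most, with 4. Members were narrower than retained sites, with median widths of 315 and 645 bp. A site is the union of its fragments, and whether the number of fragments accounts for the difference in width was not tested.

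In base composition members were close to retained sites. The median GC content of the central 200 bp was 55.0% at members, 54.5% at retained and 51.0% at all sites. At least 10 CpG were present in 11.1% of members, 18.8% of retained and 5.47% of all sites. Exact words were searched on both strands of these windows in 1484 members, 8386 retained and 58910 of all sites. The octamer word ATGCAAAT, bound by OCT factors, was in 29 members (1.95%), against 1.09% of retained and 1.09% of all sites. The KLF word GGGNGTGG was in 14.2% of members, 11.3% of retained and 8.93% of all sites, and the SOX word ACAATGG in 3.37%, 2.53% and 3.98%. The ESRRB word AAGGTCA was in 3.44%, 2.97% and 4.33%. The T-box word GGTGTGA was in 4.04%, 2.87% and 3.43%, and the ZIC word CAGCAGG in 16.1%, 14.8% and 12.04%.

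Words of blood and endothelial factors had lower shares in members and in retained sites than in all sites, except for ETS. The GATA word AGATAAG was in 1.89% of members, 2.38% of retained and 5.42% of all sites. The RUNX word TGTGGTT was in 3.44%, 3.66% and 5.99%, the AP-1 word TGANTCA in 7.08%, 8.31% and 11.6%, and the FOX word TGTTTAC in 1.82%, 2.03% and 2.70%. The word CATCTG of the TAL1 E-box was in 14.8%, 14.7% and 17.7%, and the TEAD word ACATTCC in 3.91%, 3.34% and 4.37%. The ETS word CCGGAAG was in 1.75%, 3.03% and 1.76%. The CTCF word AGGGGGC was in 8.15% of members, 11.96% of retained and 6.13% of all sites, and the NRF1 word GCATGCGC in 0.606%, 0.775% and 0.421%. All of these are shares without a test, they move with GC content, and a word is no proof of binding. None of the words of OCT, SOX, ESRRB and KLF was in 78.4% of members, 82.9% of retained and 82.7% of all sites. Among the sequences printed above, the Lefty1, Znrf3 intron, Gfi1b and Hoxc11 windows held none of the 15 words, the Qrsl1 window held KLF, AP-1 and CTCF words and the Fgf4 window a ZIC and a SOX word.

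**Figure D5:**
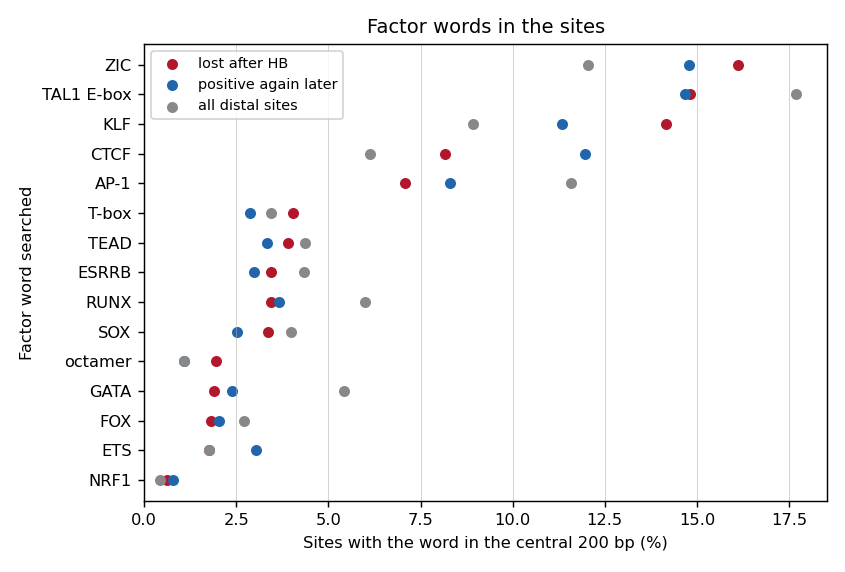
Percentage of sites whose central 200 bp hold each factor word on either strand (horizontal axis), for lost sites, for sites positive again later and for all distal sites. Octamer, KLF, ZIC and T-box words have their highest share in the lost sites, and GATA, RUNX, AP-1 and FOX words their lowest. SOX and ESRRB words have their highest share in all distal sites.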

How the data were processed

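Each of the 95 sorted lists, as deposited, names its distinct fragments as intervals without reads. Per the methods, reads were trimmed with TrimGalore, mapped to mm10 with Bowtie2, filtered by mapping quality, deduplicated, held against HM-1 controls and plasmid fragments, limited to ATAC-seq peaks and split into distal and promoter lists. Tool names are from the submitters' processing notes. Plasmid and control lists were deposited with raw read counts per fragment, from 17249152 to 33263313 reads in pDONR. Duplicate and PCR bias remains in them, and intervals of a binomial kind were not computed.

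Starts of sorted fragments were moved by 1 bp to fit the plasmid lists, and coordinates are given from 1. Members and gene lists were chosen with earlier results of these data known. Plasmid reads were summed over every site a fragment overlapped. edgeR 4.0.16 (TMM, filterByExpr, glmQLFTest) tested these counts in 5 pDONR libraries. limma 3.58.1 tested log2 of fragments per 10000 with 1 added in 25 Negative libraries, for sites listed in at least 4. Both used an adjusted p of 0.05. DESeq2 1.42.0 and R 4.3.3 served alternatives. The SE of edgeR was approximated from its F statistic. Named sites were the 10 in most sets, 5 recurring in later Negative lists, the 5 smallest adjusted p per direction and fit (ties by p) and up to 4 per gene list. In simulated counts, edgeR called 3, 146 and 195 of 200 sites raised 4, 16 and 64 times over 53771 sites, and limma called 1 and 113 of 200 raised 4 and 16 times. Genes are from GENCODE, sequence from GRCm38. Nothing in the labels says that replicates are separate cultures, so p-values measure the spread between these libraries. Same-numbered Negative lists did not all deviate together (r of 0.05 to 0.36), so replicates were not treated as pairs. The alternatives were other normalisations, tools, filters, vectors and left-out libraries or replicates. Values of some named sites are not reported here.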

Additional observations from a re-analysis of the deposited data

Results flagged for a closer look

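In the HE2 Negative libraries, replicate 1 listed 0.0673% of the lost sites, which was 1 site, while the other 4 replicates listed 0. The gap made it stand apart from its group. The usual chance rate of about 1 in 20 groups is meant for untied values and does not hold for 1 site against 0. In all, 7 groups of 5 replicates were looked at.

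The promoter lists, which the rule did not use, held a positive fragment of HE1, HE2 or HP over 6 lost sites. The fragments lay over 4 sites in HE1, 5 in HE2 and 3 in HP.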

How the results depend on the processing

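The number of lost sites was 645 with at least 2 positive fragments in each of ES and HB, 462 with at least 2 positive replicates in each, and 1026 to 1481 with each replicate left out. Starts as deposited (1485), brighter gates only (1254), bins of 500 bp (1772), promoter lists counted too (1479) and 4 HE1 libraries left out (1502) moved it by less than 1.5 times. The number of lost sites in later Negative lists, 24, was 11 to 24 with each replicate left out and the lost sites chosen anew, the lowest without replicate 1, and 8 where the identical fragment or ends within 5 bp were required.

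In cloned chromatin, members called higher in ES and HB numbered 298, against 641 by DESeq2, 738 on distinct fragments, 16 on pSKB reads and 0 on pDONR and pSKB summed. On the sum, 666 members lay at an unadjusted p under 0.05, and the count of all sites there is not given. Each left-out pDONR library gave 0 to 377, with 168 without ES and 0 without HE1, HE2 or HP. For all sites, calls higher and lower in ES and HB were 3827 and 6640 by DESeq2, 3213 and 3759 on distinct fragments, 55 and 132 on pSKB and 0 and 0 on the sum, and 0 to 2653 and 0 to 3751 with each library left out. The cause was not tested. The median difference of members stayed between 1.93 and 2.41 under every alternative. The Pip5k1c site turned to -0.98 on pSKB and -0.0543 on the sum and ranged from -0.0465 (without HE2) to 0.95 with a library left out. The C77080 site turned to -0.18 on pSKB, and the Dr1 site ranged from -0.15 (without HB) to 1.36. Of 468 values of 39 named sites under these alternatives, 112 missed a threshold they had passed.

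In the Negative lists 0 sites were called under every alternative, the replicate number as a block included, where the median of the 42 members was 0.21 as without pairing. It was 0.57 with 0.25 added and 0.46 without normalisation, and 0.21 to 0.57 over the replicates left out. With 5 plasmid libraries and lists without reads, single differences under about 16 times were seldom detectable.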
